A study of Homo sapiens with 8 samples.

Results

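Interferon-stimulated effector genes encode the proteins that carry out the antiviral state: they bind viral RNA, block membrane fusion, deplete nucleotides or tag other proteins. In the textbook pathway, double-stranded RNA is detected inside the cell, interferons are secreted and bind receptors on the same and on neighbouring cells, and the transcription factor complex ISGF3 then binds a promoter element, the interferon-stimulated response element (ISRE), in front of these genes. Epithelial cells can mount this response without immune cells.

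The list named 51 such genes, of which 50 were measured, among 18417 genes with a probe set of their own. The probe set that covers GBP1 is also annotated to GBP3 and GBP1P1, so GBP1 was not analysed here. For USP18, 1 probe set is its own and was used. The list was drawn up after interferon-stimulated genes had been seen to rise with 17β-HSD1 siRNA in these arrays. The differences between the siRNAs given here are therefore a description of the chosen genes and no independent test of their direction.

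Short interfering RNA (siRNA), which degrades a matching message, was used to lower 1 gene in the cells studied. The arrays were Affymetrix Human Gene 1.0 ST arrays of RNA from T47D, an established luminal, estrogen receptor-positive breast cancer line. The 4 groups had 2 arrays each: 17β-HSD1 siRNA with estradiol (E2, 1 nM), 17β-HSD1 siRNA with ethanol vehicle, control siRNA with E2, and control siRNA with vehicle. 17β-HSD1, encoded by HSD17B1, reduces estrone to estradiol. Every group was steroid-deprived for 2 days, reverse-transfected with 200 nM siRNA by a lipid reagent and given E2 or vehicle in charcoal-treated medium after 48 h, for 2 more days. The knockdown used a mix of 3 siRNAs and the control a scrambled siRNA, so all 8 arrays come from transfected cells, and siRNA sequence and loss of HSD17B1 cannot be told apart. The study set out to learn what lowering 17β-HSD1 does to gene expression with and without added E2.

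Values are log2 signals, and the values of replicates 1 and 2, from 2 independent cultures, are given in that order. HSD17B1 itself was 8.32 and 8.37 in E2 and 8.41 and 8.36 in vehicle with 17β-HSD1 siRNA, against 9.12 and 8.56 in E2 and 9.35 and 8.66 in vehicle with control siRNA, and its averaged difference of -0.56 ± 0.16 (SE, 4 arrays against 4) did not pass the threshold (limma adjusted p = 0.221). Among the control arrays HSD17B1 was lower in replicate 2 than in replicate 1 in both media. Replicate 1 of 17β-HSD1 siRNA in vehicle stood apart over all probe sets, with a mean correlation to the other arrays of 0.976 against 0.984 to 0.988 for the rest. All 10 luminal markers were measured, with mean signals of 11.2 to 11.5 in 17β-HSD1 siRNA arrays and 11.4 to 11.6 in control siRNA arrays. With 17β-HSD1 siRNA and with control siRNA, the 15 measured immune cell markers averaged 6.07 to 6.52 and 6.16 to 6.19, the 10 fibroblast markers 6.28 to 6.54 and 6.28 to 6.40, and the 8 endothelial markers 6.40 to 6.72 and 6.50 to 6.62. The signal has no true zero, and no marker of these 4 lists passed the threshold between the siRNAs. Of the 10 luminal markers, 8 had a lower mean with 17β-HSD1 siRNA (list median -0.20, against 0.01 over all probe sets). An unadjusted p below 0.05 was found for 4 of them, FOXA1 (0.35 ± 0.12), XBP1 (-0.29 ± 0.10), ESR1 (-0.32 ± 0.13) and EPCAM (-0.32 ± 0.15), and for 0 immune, 1 fibroblast and 0 endothelial markers, against 9.44% of all probe sets. The part of the luminal markers in the results was not tested.

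Genes known to respond to interferon often carry an ISRE, so its presence in this list follows in part from how the genes were chosen and is given as a description. RefSeq promoter windows (GRCh38.p14, 250 bases before to 50 bases after each annotated start) were in hand for 40 of the 50 members. The ISRE core, GAAA followed by any 2 bases and a second GAAA, was searched on both strands with overlaps allowed, and lay in a window of 29 of these 40 genes. Of all 27305 genes in the table, 4.38% held it. TTCNNNGAA, the core of the gamma-activated site (GAS), reads the same on both strands and can overlap an ISRE match. It lay in windows of 10 of the 40 members and of 9.38% of all genes. With only the 250 bases before the start, 27 of the 40 members held the ISRE core. The 7 stretches shown here are the 180 bases before the start, 5′ to 3′ in the gene's direction, with complete ISRE core matches in capitals. They were picked to set leading members (IFI44L, DDX60L, IFIT1) beside a pair of neighbours with near-equal differences (IFITM1, IFITM3), the ubiquitin-like modifier gene (ISG15) and a member whose signal hardly differed (ISG20).
IFI44L (chr1:78620268-78620447, plus strand): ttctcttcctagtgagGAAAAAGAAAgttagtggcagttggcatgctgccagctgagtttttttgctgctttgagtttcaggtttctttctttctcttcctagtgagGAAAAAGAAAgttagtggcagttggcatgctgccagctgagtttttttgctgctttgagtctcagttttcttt
DDX60L (chr4:168480493-168480672, minus strand): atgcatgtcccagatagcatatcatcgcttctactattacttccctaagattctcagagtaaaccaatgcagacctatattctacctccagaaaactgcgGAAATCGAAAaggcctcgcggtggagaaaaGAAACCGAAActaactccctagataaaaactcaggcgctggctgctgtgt
IFIT1 (chr10:89392443-89392622, plus strand): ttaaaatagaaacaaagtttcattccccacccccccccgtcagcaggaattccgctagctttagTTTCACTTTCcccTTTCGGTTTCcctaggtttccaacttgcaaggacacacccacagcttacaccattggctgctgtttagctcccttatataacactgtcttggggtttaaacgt
IFITM1 (chr11:313860-314039, plus strand): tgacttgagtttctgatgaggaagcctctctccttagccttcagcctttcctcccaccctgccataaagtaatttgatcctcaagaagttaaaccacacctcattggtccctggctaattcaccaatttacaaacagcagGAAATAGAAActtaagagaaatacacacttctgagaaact
IFITM3 (chr11:320861-321040, minus strand): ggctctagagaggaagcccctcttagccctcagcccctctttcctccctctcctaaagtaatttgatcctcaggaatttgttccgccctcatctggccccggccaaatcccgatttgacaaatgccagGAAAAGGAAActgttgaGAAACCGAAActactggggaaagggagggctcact
ISG15 (chr1:1013317-1013496, plus strand): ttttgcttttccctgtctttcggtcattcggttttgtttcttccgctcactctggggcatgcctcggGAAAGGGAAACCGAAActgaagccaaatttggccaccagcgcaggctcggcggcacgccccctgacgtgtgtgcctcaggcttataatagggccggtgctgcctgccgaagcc
ISG20 (chr15:88638836-88639015, plus strand): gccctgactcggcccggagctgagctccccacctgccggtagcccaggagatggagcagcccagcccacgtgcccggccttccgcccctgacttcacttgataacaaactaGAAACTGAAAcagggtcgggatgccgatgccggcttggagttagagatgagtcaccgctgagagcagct

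In IFI44L the matches begin 164 and 73 bases before the start and lie in 2 exact copies of a 76-base stretch. ISG15 has 2 overlapping matches, 113 and 107 bases before the start. The ISG20 match begins 69 bases before the start. PARP9 and DTX3L, whose products form a complex, are transcribed away from each other from starts 38 bases apart, and 1 ISRE core serves as the match for both windows, shown with 10 bases on either side.
DTX3L and PARP9 (chr3:122564322-122564351, plus strand): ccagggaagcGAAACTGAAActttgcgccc

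Members with the ISRE core differed between the siRNAs by a median of 1.04 on the log2 scale (29 genes, 0.12 to 2.77), and the 11 without it by 0.91 (0.31 to 1.62). XAF1 and TRANK1 are among the leading members and had no match in their windows, which says only that these letters are not there. The 10 members with no window were APOL1, APOL6, GBP2, IFIT2, IFITM2, MX2, PLAAT4, PML, TRIM22 and USP18.

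All 50 members had a higher mean signal with 17β-HSD1 siRNA than with control siRNA, with a median difference of 0.97 on the log2 scale (0.11 to 2.77), where the median over all 21214 probe sets was 0.01. In these bulk samples, more cells that respond and more RNA per responding cell cannot be told apart. A gene is said to have risen where limma's adjusted p over all probe sets was below 0.05, and 13 members rose: IFI44L, IFIT3, RSAD2, XAF1, TRANK1, PLAAT4, IFITM3, IFITM1, APOL1, LGALS3BP, RTP4, IFI27 and UBE2L6. Of all probe sets 0.24% were called up, a share from which nothing is read because the genes were chosen on this contrast. With the replicate number as a block 41 members were called (0.726% of all probe sets), among them the same 13. With all 33297 probe sets in the fit 0 members were called, and 0 of all probe sets were called up. With a trended robust spread 7 members were called, and 43 of the 21214 probe sets were called up. The count also rested on single arrays, and so did the count over all probe sets. Leaving out 1 array leaves its group with 1, and the smallest member difference then ran from -0.013 to 0.15.

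**Figure D1:**
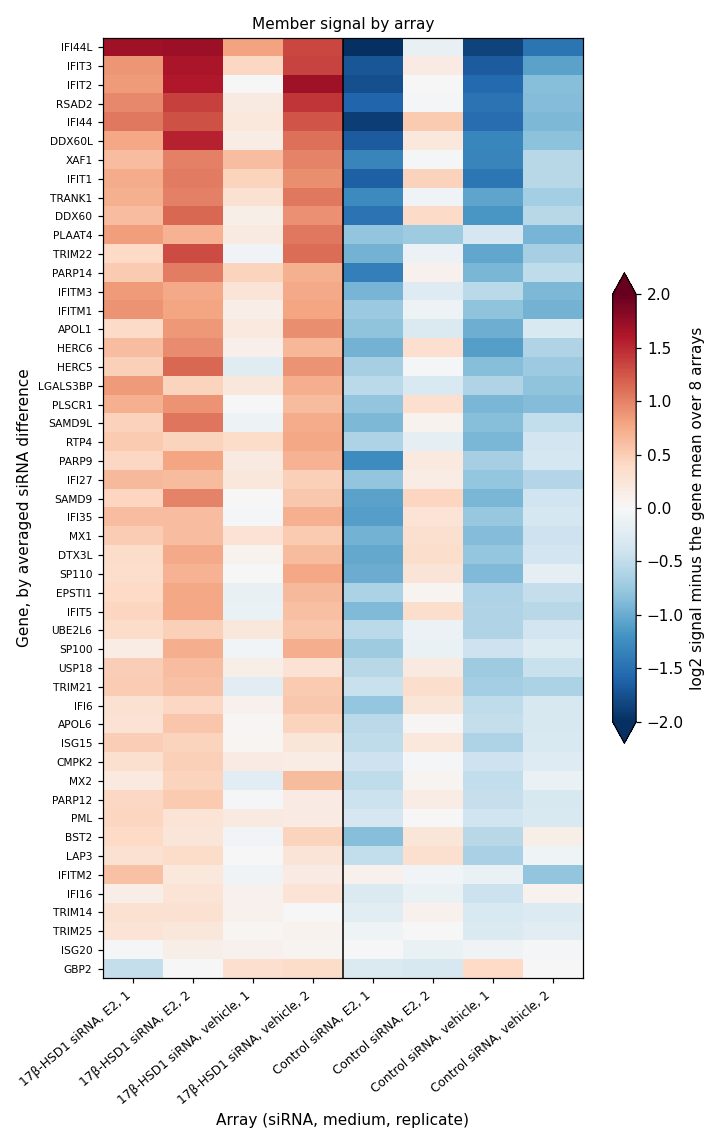
Log2 signal of the 50 members (rows, ordered by the averaged difference between the siRNAs) in the 8 arrays (columns), as the deviation from each gene's mean over the arrays. The 17β-HSD1 siRNA columns are mostly red and the control siRNA columns blue, with an exception for each siRNA. Control siRNA, E2 replicate 2 and 17β-HSD1 siRNA, vehicle replicate 1 have median deviations of 0.07 and 0.09, close to each other.

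The 4 arrays with 17β-HSD1 siRNA lay wholly above the 4 with control siRNA for 21 of the 50 members, as did 2.24% of all probe sets. Within a medium the arrays separated for 46 members in E2 (18.1% of all probe sets) and for 47 in vehicle (11.4%). Within a medium 0 members were called, and 43 in E2 and 44 in vehicle had an unadjusted p below 0.05 in limma, as did 4.61% and 5.45% of all probe sets. With the replicate block 12 were called in E2 (0.193% of all probe sets) and 13 in vehicle (0.146%).

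The IFIT family acts against foreign RNA, which some of its members bind at the 5′ end to hinder translation. IFIT3, which stabilises IFIT1 on RNA, was 9.59 and 10.34 in E2 and 9.12 and 10.06 in vehicle with 17β-HSD1 siRNA, against 7.00 and 8.86 in E2 and 7.04 and 7.64 in vehicle with control siRNA. IFIT2 was 9.33 and 10.09 in E2 and 8.49 and 10.18 in vehicle with 17β-HSD1 siRNA, against 6.72 and 8.47 in E2 and 6.92 and 7.63 in vehicle with control siRNA. For both genes every 17β-HSD1 siRNA array was above every control array, and control siRNA, E2 replicate 2 was the highest control. IFIT3 rose 4.41-fold (2.14 ± 0.36 on the log2 scale), while the 4.24-fold difference of IFIT2 (2.08 ± 0.41) was called only with the replicate block. IFIT1, which recognises RNA lacking the cap methylation of host messages, was 12.36 and 12.67 in E2 and 12.06 and 12.56 in vehicle with 17β-HSD1 siRNA, against 10.00 and 12.08 in E2 and 10.19 and 11.07 in vehicle with control siRNA. Here 1 control array, E2 replicate 2, reached the level of the lowest 17β-HSD1 siRNA array, and the difference was 1.58 ± 0.36. IFIT5 followed at 0.84 ± 0.24.

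Among genes named only for their induction by interferon, IFI44L led the whole list. IFI44L was 9.52 and 9.53 in E2 and 8.62 and 9.15 in vehicle with 17β-HSD1 siRNA, against 5.73 and 7.67 in E2 and 5.97 and 6.35 in vehicle with control siRNA. The groups did not overlap, and the control arrays spanned nearly 2 log2 units. IFI44L rose 6.84-fold (2.77 ± 0.32), by 2.82 ± 0.45 in E2 and 2.73 ± 0.45 in vehicle. Its neighbour IFI44 was 8.64 and 8.86 in E2 and 7.80 and 8.85 in vehicle with 17β-HSD1 siRNA, against 5.70 and 8.11 in E2 and 6.06 and 6.68 in vehicle with control siRNA, so that control siRNA, E2 replicate 2 lay above 17β-HSD1 siRNA, vehicle replicate 1. The IFI44 difference was 1.90 ± 0.42. IFI27, a small membrane protein gene, rose 1.99-fold (0.99 ± 0.18). IFI35 differed by 0.97 ± 0.26, IFI6 by 0.67 ± 0.19 and IFI16, a sensor of DNA, by 0.39 ± 0.13, none of them past the threshold.

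Viperin, encoded by RSAD2, turns cytidine triphosphate into a chain terminator of viral RNA synthesis. RSAD2 was 8.97 and 9.37 in E2 and 8.18 and 9.44 in vehicle with 17β-HSD1 siRNA, against 6.42 and 7.97 in E2 and 6.53 and 7.14 in vehicle with control siRNA. It rose 3.93-fold (1.97 ± 0.33) without overlap. CMPK2 lies next to RSAD2 on the chromosome and encodes a nucleotide kinase, and differed by 0.56 ± 0.12, with all 17β-HSD1 siRNA arrays between 8.11 and 8.44 and all control arrays between 7.55 and 7.93. DDX60L, a helicase-like gene, was 9.33 and 10.10 in E2 and 8.70 and 9.66 in vehicle with 17β-HSD1 siRNA, against 6.89 and 8.77 in E2 and 7.25 and 7.74 in vehicle with control siRNA. Control siRNA, E2 replicate 2 lay above 17β-HSD1 siRNA, vehicle replicate 1, and DDX60L and its neighbour DDX60 differed by 1.79 ± 0.36 and 1.41 ± 0.34. SAMD9L and SAMD9, whose products restrict translation of poxvirus and other messages, differed by 1.08 ± 0.24 and 0.97 ± 0.28. SAMD9 was 8.18 and 8.74 in E2 and 7.74 and 8.29 in vehicle with 17β-HSD1 siRNA, against 6.68 and 8.19 in E2 and 6.84 and 7.36 in vehicle with control siRNA, again with that control array above the lowest 17β-HSD1 siRNA array. ISG20, a 3′ exonuclease gene, was 8.17 and 8.31 in E2 and 8.29 and 8.26 in vehicle with 17β-HSD1 siRNA, against 8.20 and 8.07 in E2 and 8.12 and 8.15 in vehicle with control siRNA. Its groups overlapped, and the difference was 0.12 ± 0.10, the smallest but for GBP2.

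IFITM proteins sit in cell membranes and hinder the fusion of enveloped viruses. IFITM1 was 11.67 and 11.57 in E2 and 10.91 and 11.56 in vehicle with 17β-HSD1 siRNA, against 10.04 and 10.67 in E2 and 9.97 and 9.82 in vehicle with control siRNA. IFITM3 was 10.11 and 10.02 in E2 and 9.52 and 10.01 in vehicle with 17β-HSD1 siRNA, against 8.34 and 9.00 in E2 and 8.73 and 8.37 in vehicle with control siRNA. Both rose without overlap, 2.47-fold (1.31 ± 0.17) and 2.48-fold (1.31 ± 0.17). IFITM2, which lies beside IFITM1 in the same cluster, was 10.73 and 10.36 in E2 and 10.07 and 10.30 in vehicle with 17β-HSD1 siRNA, against 10.23 and 10.09 in E2 and 10.02 and 9.35 in vehicle with control siRNA, with overlapping groups and a difference of 0.44 ± 0.15. The IFITM genes are closely related in sequence, and how far the probes tell them apart was not tested. PLSCR1, a phospholipid scramblase gene, differed by 1.12 ± 0.22. BST2 encodes tetherin, which holds budding virions at the cell surface, and was 10.86 and 10.71 in E2 and 10.41 and 10.92 in vehicle with 17β-HSD1 siRNA, against 9.61 and 10.71 in E2 and 9.92 and 10.59 in vehicle with control siRNA. The BST2 difference of 0.52 ± 0.23 is small beside the spread of the control arrays.

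MX1, a dynamin-like GTPase gene whose product traps viral nucleocapsids, was 12.09 and 12.20 in E2 and 11.87 and 12.11 in vehicle with 17β-HSD1 siRNA, against 10.64 and 11.91 in E2 and 10.71 and 11.17 in vehicle with control siRNA. Its difference was 0.96 ± 0.23, with control siRNA, E2 replicate 2 above the lowest 17β-HSD1 siRNA array. MX2, which acts on nuclear import of retroviruses, differed by 0.53 ± 0.19. GBP2, a guanylate-binding protein gene that answers mainly to interferon gamma, was 5.52 and 6.01 in E2 and 6.33 and 6.37 in vehicle with 17β-HSD1 siRNA, against 5.72 and 5.68 in E2 and 6.41 and 5.99 in vehicle with control siRNA. The GBP2 groups overlapped between the siRNAs, and the difference was 0.11 ± 0.14.

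The ISG15 system attaches a ubiquitin-like protein to other proteins, through the conjugating enzyme UBE2L6 and the ligase HERC5, and USP18 removes it. UBE2L6 was 9.83 and 9.95 in E2 and 9.69 and 10.01 in vehicle with 17β-HSD1 siRNA, against 8.93 and 9.34 in E2 and 8.86 and 9.08 in vehicle with control siRNA. Its groups did not overlap, and it alone in this system rose, 1.76-fold (0.82 ± 0.13). HERC6 was 10.23 and 10.54 in E2 and 9.70 and 10.28 in vehicle with 17β-HSD1 siRNA, against 8.66 and 9.94 in E2 and 8.50 and 9.00 in vehicle with control siRNA. HERC5 was 7.48 and 8.14 in E2 and 6.76 and 7.90 in vehicle with 17β-HSD1 siRNA, against 6.33 and 6.96 in E2 and 6.14 and 6.28 in vehicle with control siRNA. For both neighbours control siRNA, E2 replicate 2 lay above 17β-HSD1 siRNA, vehicle replicate 1, and the differences were 1.16 ± 0.25 and 1.14 ± 0.24. USP18 differed by 0.76 ± 0.15 and ISG15 by 0.61 ± 0.15. For ISG15 the arrays were 9.45 and 9.41 in E2 and 9.00 and 9.20 in vehicle with 17β-HSD1 siRNA, against 8.44 and 9.16 in E2 and 8.35 and 8.65 in vehicle with control siRNA, and the group ranges crossed only through control siRNA, E2 replicate 2. All 5 genes were called with the replicate block.

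In the ADP-ribosylation group, PARP14 was 10.49 and 10.99 in E2 and 10.42 and 10.69 in vehicle with 17β-HSD1 siRNA, against 8.60 and 10.07 in E2 and 9.05 and 9.47 in vehicle with control siRNA, with no overlap and a difference of 1.35 ± 0.26. PARP9 and DTX3L, the divergent pair, differed by 1.04 ± 0.26 and 0.91 ± 0.26, and PARP12 by 0.53 ± 0.13. None of these 4 genes was called, and all 4 were with the replicate block.

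No gene of the TRIM and PML nuclear body group was called either, and 5 of its 7 were with the block. TRIM22, a ubiquitin ligase gene that restricts retroviruses, led it. TRIM22 was 7.07 and 7.98 in E2 and 6.59 and 7.79 in vehicle with 17β-HSD1 siRNA, against 5.73 and 6.55 in E2 and 5.63 and 6.01 in vehicle with control siRNA, with no overlap and a difference of 1.38 ± 0.28. SP110 differed by 0.91 ± 0.27, SP100 by 0.77 ± 0.19 and PML by 0.52 ± 0.11. TRIM21, a cytosolic antibody receptor gene, was 8.34 and 8.42 in E2 and 7.61 and 8.36 in vehicle with 17β-HSD1 siRNA, against 7.39 and 8.18 in E2 and 7.15 and 7.21 in vehicle with control siRNA. Control siRNA, E2 replicate 2 lay above 17β-HSD1 siRNA, vehicle replicate 1, and the difference was 0.70 ± 0.19. The smallest differences were in TRIM14 (0.35 ± 0.11) and TRIM25 (0.31 ± 0.10), the ligase that acts on the RNA sensor RIG-I. TRIM14 was 8.04 and 8.04 in E2 and 7.82 and 7.75 in vehicle with 17β-HSD1 siRNA, against 7.53 and 7.83 in E2 and 7.44 and 7.46 in vehicle with control siRNA, with the groups overlapping through control siRNA, E2 replicate 2. TRIM25 was 10.35 and 10.31 in E2 and 10.11 and 10.15 in vehicle with 17β-HSD1 siRNA, against 9.99 and 10.08 in E2 and 9.78 and 9.85 in vehicle with control siRNA, without overlap.

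The remaining 9 members held 6 of the 13 called genes. XAF1, a pro-apoptotic binding partner of XIAP, was 9.87 and 10.26 in E2 and 9.88 and 10.25 in vehicle with 17β-HSD1 siRNA, against 7.93 and 9.22 in E2 and 7.94 and 8.69 in vehicle with control siRNA. It did not overlap between the siRNAs and rose 3.07-fold (1.62 ± 0.26). PLAAT4, a phospholipase gene also known as RARRES3, was 9.57 and 9.42 in E2 and 8.92 and 9.79 in vehicle with 17β-HSD1 siRNA, against 7.95 and 8.02 in E2 and 8.40 and 7.81 in vehicle with control siRNA. It rose 2.61-fold (1.38 ± 0.19), and its highest control array was vehicle replicate 1. LGALS3BP, which encodes a secreted glycoprotein that binds galectins, was 11.23 and 10.83 in E2 and 10.61 and 11.11 in vehicle with 17β-HSD1 siRNA, against 9.84 and 10.07 in E2 and 9.77 and 9.58 in vehicle with control siRNA. It rose 2.19-fold (1.13 ± 0.14). TRANK1 rose by 1.54 ± 0.24, APOL1, the apolipoprotein gene known for lysis of trypanosomes, by 1.19 ± 0.21 and RTP4 by 1.05 ± 0.15. EPSTI1 at 0.84 ± 0.19, APOL6 at 0.66 ± 0.15 and the aminopeptidase gene LAP3 at 0.46 ± 0.18 did not pass.

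**Figure D2:**
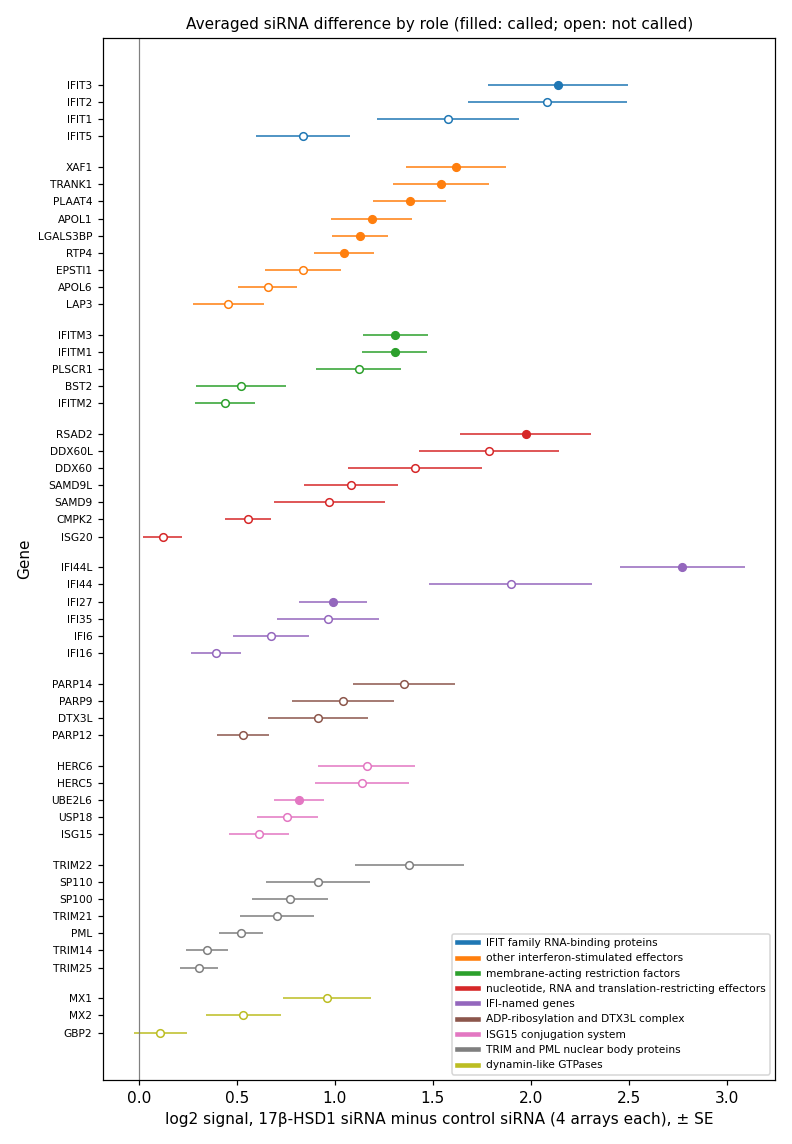
Difference in log2 signal between 17β-HSD1 siRNA and control siRNA (points) with its SE (bars) for each member, grouped by role, 4 arrays against 4. Filled points are the 13 called genes. The values run from 0.11 in GBP2 to 2.77 in IFI44L, and within 1 role, the TRIM and PML group, they run from 0.31 in TRIM25 to 1.38 in TRIM22.

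The order of the members was alike in both media. Across the 50 genes the difference in vehicle correlated with that in E2 at a Pearson r of 0.97 and a Spearman rho of 0.96. Each came from 4 arrays with none in common, though all went through the same probe sets and normalization. With the replicate number taken as the culture, both media also drew on the same 2 independent cultures. No such correlation was computed over all probe sets. The 10 largest averaged differences were also the 10 largest in vehicle, and 9 of them were in E2. Leaving out any 1 array kept 8 to 10 of these 10 at the head. Of the 50 members, 21 lie next to another member among protein-coding genes, in 11 adjacent pairs on 8 chromosomes. Some pairs had near-equal differences, such as IFITM1 and IFITM3, HERC6 and HERC5, and IFIT2 and IFIT3. Others did not, the widest gap being 1.42 between CMPK2 and RSAD2.

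The control arrays were not at one level. Control siRNA, E2 replicate 2 was the highest of the 4 control arrays for 45 of the 50 members, against 20.5% of all probe sets, and control siRNA, E2 replicate 1 was the lowest for 27. Replicate 2 in E2 exceeded the mean of the other 3 controls by a median of 0.76 log2 units, where all probe sets had a median of -0.01. For 34 members the excess was at least 0.5 (2.61% of all probe sets), and for 28 the array lay above the lowest 17β-HSD1 siRNA array. That lowest array was vehicle replicate 1 for 44 members.

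To express this as a share, the excess of a control array over the mean of the other 3 was divided by the gap between the 4 17β-HSD1 siRNA arrays and those same 3, on the log2 scale. The share was taken for the 43 members with an averaged difference of at least 0.5. In control siRNA, E2 replicate 2 its median was 64.2%, and 34 members were above 50%. TRIM21 reached 99.5%, BST2 97.7%, SAMD9 96.0%, IFIT5 94.5% and DTX3L 90.6%. At the other end were PLAAT4 at -2.17%, LGALS3BP at 28.3%, APOL1 at 32.2% and IFITM3 at 36.4%. IFI44L, the leading member, stood at 51.7%, while its neighbour IFI44 stood at 82.2%. Control siRNA, vehicle replicate 2 had a median share of 4.79%, and BST2 was its only member above 50%, at 78.5%. The other 2 control arrays, both replicate 1, had negative median shares of -47.3% in E2 and -40.5% in vehicle. For these arrays and vehicle replicate 2, the reference mean includes control siRNA, E2 replicate 2, which lowers their shares. As a median deviation from each gene's mean over all arrays, the members stood at -0.46 in control siRNA, vehicle replicate 2. They stood at -0.73 in vehicle replicate 1 and -0.79 in E2 replicate 1. The size of the share is tied to the choice of genes, since a gene that is high in a control array has a smaller averaged difference.

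**Figure D3:**
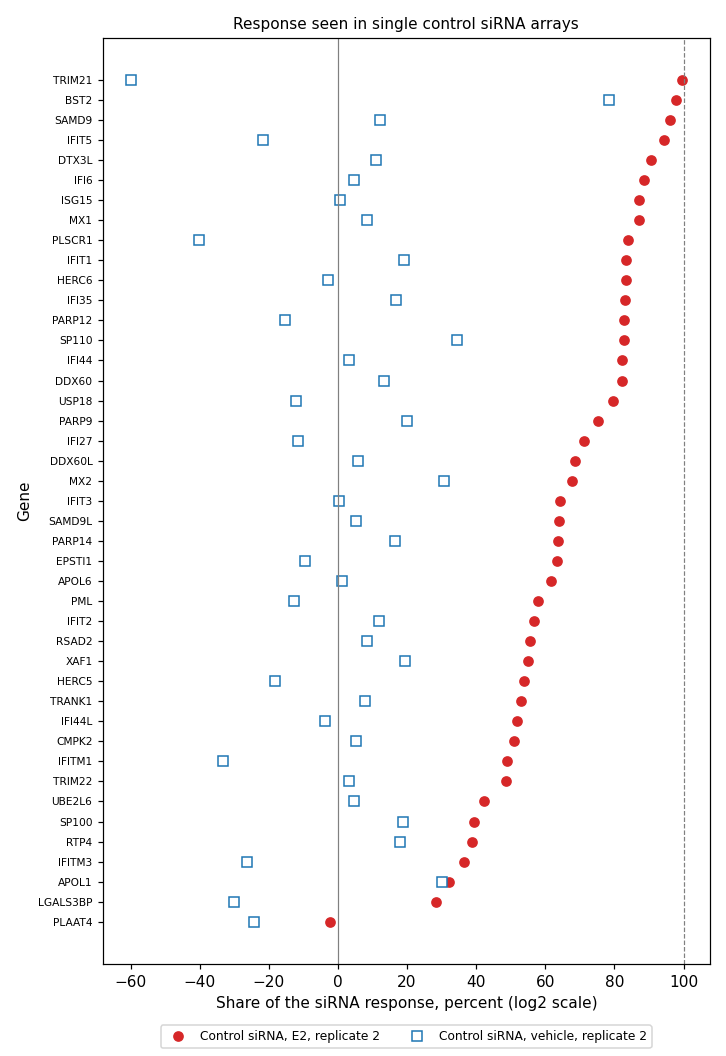
Share of the siRNA difference found in 2 single control siRNA arrays, in percent on the log2 scale, for the 43 members with an averaged difference of at least 0.5. Circles (E2 replicate 2) run from -2.17% in PLAAT4 to 99.5% in TRIM21, and squares (vehicle replicate 2) scatter about a median of 4.79%. The reference for the squares includes E2 replicate 2, which lowers them.

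A comparison free of shared arrays set the gap between the 2 control siRNA, E2 arrays against the siRNA difference in vehicle. Over the 50 members they correlated at a Pearson r of 0.73 and a Spearman rho of 0.68. This is a description of chosen genes that were all measured on the same arrays, and both quantities drew on the same 2 independent cultures. The correlation over all probe sets was not computed. Members with large differences in vehicle, such as IFI44, IFIT1, IFIT3 and IFI44L, also had large gaps between these controls. PLAAT4 and LGALS3BP had differences of 1.25 ± 0.26 and 1.18 ± 0.20 in vehicle and read 8.02 and 10.07 in control siRNA, E2 replicate 2, against 7.95 and 9.84 in replicate 1.

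**Figure D4:**
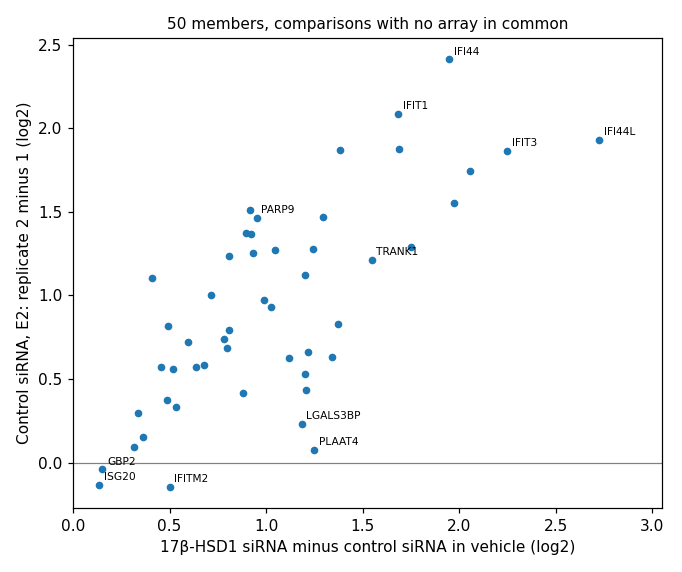
Each point is 1 of the 50 members. The x axis is the difference in log2 signal between 17β-HSD1 siRNA and control siRNA in vehicle, and the y axis the gap between replicates 2 and 1 of control siRNA in E2; the points rise together (Pearson r of 0.73), with PLAAT4 and LGALS3BP low on the y axis for their place on the x axis.

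Replicate 2 exceeded replicate 1 for most members in every group: for 37 of 50 with 17β-HSD1 siRNA in E2, 46 with 17β-HSD1 siRNA in vehicle, 47 with control siRNA in E2 and 44 with control siRNA in vehicle. Over all probe sets the shares were 39.8%, 42.6%, 48.6% and 55.8% in the same order of groups. The median gaps of the members were 0.20, 0.53, 0.82 and 0.33. In both control groups the replicate with more signal from the members was the one with less HSD17B1 signal. With 17β-HSD1 siRNA this held in vehicle (HSD17B1 at 8.41 and 8.36) and not in E2 (8.32 and 8.37). The part of the HSD17B1 level in the results was not tested.

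No member passed the test for E2. The averaged E2 effect is orthogonal to the siRNA difference in this design and was tested on all probe sets, of which 1.55% were called. Of the 50 members 0 were called by limma, with or without the replicate block (2.4% of all probe sets with it), and 8 had an unadjusted p below 0.05, 1 lower and 7 higher in E2, where 8.89% of all probe sets had one. GBP2, whose groups overlapped between the siRNAs, had the smallest p, at -0.55 ± 0.14 (adjusted p = 0.0902), with E2 arrays at 5.52 to 6.01 and vehicle arrays at 5.99 to 6.41. All these GBP2 signals were below the array medians of 7.25 to 7.37, and they come from the brighter of its 2 probe sets. The other 7 members with an unadjusted p below 0.05 were PLSCR1 (0.58 ± 0.22), TRIM21 (0.50 ± 0.19), IFITM2 (0.42 ± 0.15), IFITM1 (0.42 ± 0.17), USP18 (0.37 ± 0.15), PARP12 (0.33 ± 0.13) and TRIM14 (0.24 ± 0.11), with adjusted p between 0.362 and 0.536. The member median was 0.24 against -0.02 over all probe sets.

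That median depended on control siRNA, E2 replicate 2. Without it the averaged median was 0.01, and within control siRNA the median was -0.18 without it, 0.26 with both arrays and 0.74 without replicate 1. Without replicate 1, PLSCR1, IFI44L and IFI44 were called as higher in E2 in the averaged contrast, by 0.86, 1.07 and 1.08. After 17β-HSD1 siRNA the median was 0.25, or -0.04 without vehicle replicate 1. Neither siRNA alone gave a called member in limma (0.269% of all probe sets called with 17β-HSD1 siRNA and 0.0848% with control siRNA, or 0.523% and 0.599% with the replicate block). With 17β-HSD1 siRNA 1 member had an unadjusted p below 0.05 (4.52% of all probe sets), and with control siRNA 3 had one (5.94%), shares near those of all probe sets. The interaction, which asks whether the siRNA difference depends on the medium, called 0 members and 0% of all probe sets, with 0 members at an unadjusted p below 0.05. Its member median was 0.00 with all arrays. It was 0.42 when control siRNA, E2 replicate 2 was left out and -0.45 when its partner, replicate 1, was. These tests had 2 arrays a group, and a p that misses the threshold does not show that the responses were alike.

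Genes upstream and beside the effectors were read from 4 lists, also put together with these results known. In the list of double-stranded RNA sensors and oligoadenylate synthetases, 2 of 21 measured genes rose: OASL (1.44 ± 0.25) and TLR3 (0.84 ± 0.15), the endosomal receptor for double-stranded RNA. IFIH1, which encodes the cytosolic sensor MDA5, was at 1.10 ± 0.25 and DHX58 at 0.92 ± 0.20. Of 10 measured antigen presentation genes 4 rose, namely the peptide transporter gene TAP1 (1.09 ± 0.15), the immunoproteasome gene PSMB9 (1.23 ± 0.19), the class I light chain gene B2M (0.94 ± 0.15) and the trimming peptidase gene ERAP1 (0.94 ± 0.17). Of 19 interferon and chemokine ligands 1 rose, CCL5 (1.72 ± 0.31). The interferon lambda genes IFNL2 and IFNL1 were at 0.64 ± 0.14 and 0.47 ± 0.11, and the interferon beta gene IFNB1 at 0.53 ± 0.14. Over the 8 arrays IFNB1 read 5.17 to 6.17, below every array median (7.25 to 7.37). IFNL1 read 7.70 to 8.35 and IFNL2 7.99 to 9.29, above these medians. The signal has no true zero, and whether these ligands were expressed was not tested. How far the probes tell the interferon lambda genes apart was not tested either. Of 21 measured receptor, JAK-STAT and IRF genes, 0 were called by limma and 4 had an unadjusted p below 0.05 (9.44% of all probe sets). STAT3 was at 0.50 ± 0.13, IRF9, the DNA-binding subunit of ISGF3, at 0.44 ± 0.11, IRF1 at 0.37 ± 0.11 and JAK2 at 0.33 ± 0.15. With the replicate block the counts called up were 8, 6, 3 and 0. Of all probe sets 0.726% were called up with the block and 0.24% without it. The median differences of the 4 lists, in the order given, were 0.42, 0.94, 0.15 and 0.05, against 0.97 for the effectors.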

How the data were processed

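RNA from 8 T47D cultures was hybridised to 1 array each. The authors deposited log2 signals for 33297 probe sets, a scale read from the values (2.42 to 15.2). Array medians lay between 7.25 and 7.37. How probes were summarised and normalized is not given in the sources used here. The values entered the fit as deposited. The platform annotation names 19460 probe sets with 1 symbol and 1754 with several. These 21214 were fitted together by lmFit and eBayes of limma (version 3.58.1, under R 4.3.3), each group having its own coefficient and 4 residual degrees of freedom remaining, with Benjamini-Hochberg adjustment over all of them. A gene is represented by its single-symbol probe set with the highest mean over the arrays. The fit was tested on simulated data: a first requirement on how many altered probe sets it recovers was not met and, after that was seen, was replaced by a limit on false calls, which was met.

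Members and lists were chosen with earlier results of these data known. Any member may be named. Per-array values are printed for at least the leading member of each role and for the highest and lowest control shares, and were not printed for every gene the naming rule allows. Up to 4 genes of each other list are named, those with the smallest p between the siRNAs.

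The labels trace the replicates to 2 independent cultures, so the number was taken as the culture. Deviations of same-numbered arrays correlated at 0.31 to 0.44 for 4 of 6 pairs of groups. For control siRNA, vehicle the correlation was 0.01 with 17β-HSD1 siRNA, E2 and -0.20 with 17β-HSD1 siRNA, vehicle. With 2 arrays a group, the number of arrays limits the precision. Alternatives were a further quantile normalization, all probe sets, a filter on dim probe sets, a trended robust spread, the replicate block, leaving out each array, and other settings for the control share. A crossed block, with the replicate numbers of control siRNA, vehicle swapped, and leaving out 2 arrays together were added after seeing the data.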

Additional observations from a re-analysis of the deposited data

How the results depend on the processing

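With 2 arrays a group, counts of called members moved with the setting more than the differences themselves. In the averaged siRNA contrast 13 members were called, 0 when probe sets without a symbol joined the fit, 7 with a trended robust spread, 41 with the replicate block and 25 with a crossed replicate block. Leaving out 1 array gave 0 to 39, and the median difference then ran from 0.67 to 1.24. Without both control siRNA, E2 replicate 2 and 17β-HSD1 siRNA, vehicle replicate 1, 42 were called, the median was 1.37, and the averaged E2 median was -0.13. Of the 50 members only GBP2 (0.11) changed sign in the averaged siRNA contrast under these settings. GBP2 ran from -0.013 to 0.23 without 1 array, the lowest without 17β-HSD1 siRNA, E2 replicate 2, and was -0.031 as the mean over its probe sets. In vehicle 0 members were called, 13 with the replicate block and 0 to 13 without 1 array, with medians of 0.67 to 1.21. In E2 0 were called, 12 with the block and 0 to 22 without 1 array, with medians of 0.45 to 1.48. For the averaged E2 effect 0 were called, 0 to 3 without 1 array and 1, GBP2, with the crossed block; its median ran from 0.01 to 0.48 without 1 array. Leaving out 1 array gave E2 medians of -0.18 to 0.74 with control siRNA and -0.04 to 0.50 with 17β-HSD1 siRNA, and interaction medians of -0.45 to 0.42. For the share of the siRNA difference seen in single control arrays, control siRNA, E2 replicate 2 had a median of 71.6% against the same-medium control alone, 55.6% for members differing by at least 1 log2 unit and 64.3% after quantile normalization. Medians stayed within the replicate SD of 0.39 under the other settings run, and the replicate block left the E2 counts of the members at 0. The causes were not tested.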

Other observations

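Control siRNA, E2 replicate 2 was also compared with the mean of the other 3 control arrays in the lists beside the effectors, as values with no test. Among the sensors and oligoadenylate synthetases, its excess on the log2 scale was 0.81 for OASL, 0.18 for TLR3, 0.62 for DHX58 and 1.09 for IFIH1. Among antigen presentation genes it was 0.54 for TAP1, 0.52 for PSMB9, 0.35 for B2M and 0.37 for ERAP1. The ligand genes read 0.74 for CCL5, 0.35 for IFNL2, -0.01 for IFNL1 and 0.17 for IFNB1. By list, the median excess of this array was 0.26 for the sensors and oligoadenylate synthetases, 0.36 for antigen presentation, 0.10 for the ligands and -0.03 for the receptor, JAK-STAT and IRF genes, against 0.76 for the effectors.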
